A study of Rattus norvegicus with 20 samples.

Results

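The comparison between the highest dose of tricresyl phosphate (TCP), 994.6 mg/kg, and the dose below it, 497.3 mg/kg, used 6 of the 20 liver arrays of the study, 3 per dose, chosen by their labelled dose. TCP is an organophosphate ester used as a plasticizer and flame retardant. Male Harlan Sprague Dawley rats received it in corn oil by oral gavage once daily for 4 days, at 497.3 mg/kg (1.35 mmol/kg) or 994.6 mg/kg (2.7 mmol/kg), and the left liver lobe was taken on day 5. The other arrays came from rats given corn oil alone (control, n = 5) or TCP at 62.3, 124.5 or 248.6 mg/kg (n = 3 each), and each array holds the RNA of 1 rat. All rats shared the strain, sex, vehicle, route and schedule, and the labels give neither their age, the isomers of TCP in the dose, nor the time of day at which tissue was taken. The comparison asks what the last dose doubling added to liver RNA, with no control array in the contrast.

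The liver meets a toxicant at several levels. Nuclear receptors such as CAR and PXR induce enzymes that oxidize, conjugate and export it. Damaged protein or disturbed metabolism engages the integrated stress response, in which ATF4 drives genes such as Atf3, Trib3 and Fgf21, and signals at the cell surface engage immediate early genes such as Jun. Many liver genes also follow the circadian clock, in which BMAL1 drives the repressors CRY, PER and REV-ERB. Organophosphate esters are known as inhibitors of serine esterases, among them butyrylcholinesterase and neuropathy target esterase.

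Values are log2 expression levels on the scale deposited by the authors, so that a change of 1 is a doubling. The 6 arrays carried liver RNA: 13 of 13 hepatocyte markers lay above the level of the median gene, and their median change between the doses was -0.03. One library stood apart. Replicate 1 of 994.6 mg/kg lay at 37.1 on the first principal component, which held 20.1% of the variance, while the other 5 arrays of both doses lay between -4.16 and 7.18. Counts of list members at an unadjusted p under 0.05 are therefore also given without it, and other left-out arrays are named where they moved a count that a paragraph leads with by more than 1.5 times. The difference between the 3′ and 5′ GAPDH probe sets, a sign of RNA length, was 0.81 ± 0.10 (SD, n = 3) at 497.3 mg/kg and 0.72 ± 0.11 at 994.6 mg/kg (exact two-sided permutation p = 0.4, with 0.1 the smallest p that 3 against 3 arrays can give).

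The last dose doubling raised Jun and Nr1d2 and lowered Ak4. These were the 3 genes of 14217 tested that passed the threshold, a limma p adjusted by Benjamini-Hochberg under 0.05, which is 0.0211% of all genes (0.0141% higher and 0.00703% lower). Jun encodes a subunit of the AP-1 transcription factor, Nr1d2 encodes the clock repressor REV-ERB-beta, and Ak4 encodes a mitochondrial adenylate kinase. At an unadjusted limma p under 0.05 there were 442 genes higher (3.11%) and 640 lower (4.5%) at 994.6 mg/kg, together 7.61% of those tested. With each array centred on its median these became 649 higher and 495 lower, and the calls became 5 higher and 1 lower, so the balance of directions depended on the scaling, and quantile normalization gave 4 calls higher and 1 lower. The median change over all genes was -0.01, and 39 genes were at least 2-fold higher and 13 at least 2-fold lower. Without replicate 1 of 994.6 mg/kg, 1.8% of genes were higher and 2.42% lower at that unadjusted p. These shares, and the 3.11% and 4.5% with every array, are the background of each list count further on.

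**Figure D1:**
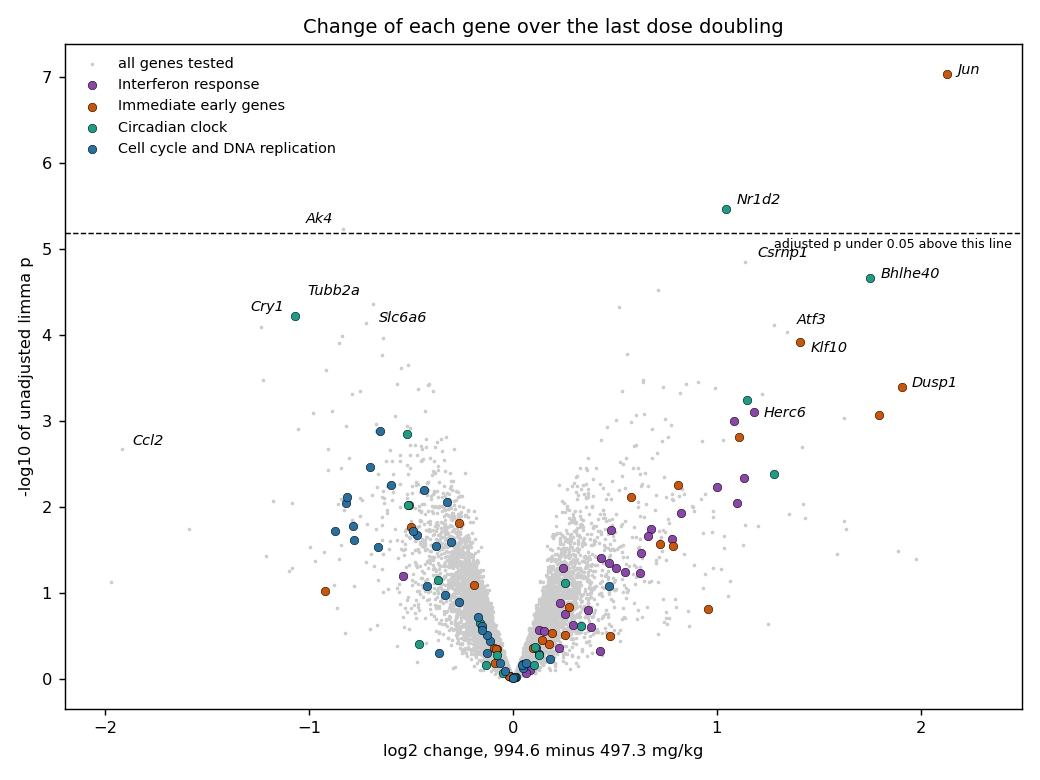
Each point is a gene: the horizontal axis is its log2 change (994.6 minus 497.3 mg/kg) and the vertical axis is minus log10 of its unadjusted limma p, with 4 gene lists in colour. Jun, Nr1d2 and Ak4 lie above the dashed line, Jun farthest to the right at 2.13.

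Jun read 8.54, 8.63 and 8.69 in replicates 1 to 3 at 497.3 mg/kg and 10.50, 11.11 and 10.64 at 994.6 mg/kg. All 3 arrays of the higher dose lay above every array of the lower dose and above the 5 control arrays, which ran from 8.55 to 9.08. The change was 2.13 ± 0.25 (SE), or 4.37-fold, with a 95% confidence interval of 1.60 to 2.66 (limma adjusted p = 0.00132). Against control, the 497.3 mg/kg arrays differed by -0.24 (limma adjusted p = 0.74) and the 994.6 mg/kg arrays by 1.88 (limma adjusted p = 0.0001). The other 2 probe sets for Jun gave changes of 1.66 and 1.71. Jun passed the threshold in 16 of 16 other settings, including each of the 6 fits that left out 1 array.

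Nr1d2 read 8.75, 8.79 and 8.14 at 497.3 mg/kg and 9.80, 9.36 and 9.65 at 994.6 mg/kg. The groups did not overlap, and replicate 3 of the lower dose lay within the control range of 7.94 to 8.40 while its other replicates lay above it. The change was 1.05 ± 0.16 (SE), or 2.07-fold (limma adjusted p = 0.0242). Its other 2 probe sets gave 0.95 and 0.28. Nr1d2 passed the threshold in 10 of 16 other settings and lost it without replicate 1 or 3 of 994.6 mg/kg or replicate 3 of 497.3 mg/kg, where the change over all leave-one-out fits ran from 0.84 to 1.17.

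Ak4 read 11.37, 11.06 and 11.09 at 497.3 mg/kg and 10.21, 10.51 and 10.29 at 994.6 mg/kg. Every array of the higher dose lay below every other array of the comparison and below the control range of 11.19 to 11.63. The change was -0.83 ± 0.13 (SE; limma adjusted p = 0.0275), and against control it was -0.35 at 497.3 mg/kg (limma adjusted p = 0.21) and -1.19 at 994.6 mg/kg (limma adjusted p = 2.4e-05). A second Ak4 probe set, with means of 5.19 and 5.31, gave 0.12. Ak4 passed in 9 of 16 other settings, and of the leave-one-out fits it passed only without replicate 2 of either dose, with changes from -0.92 to -0.73 over the 6.

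**Figure D2:**
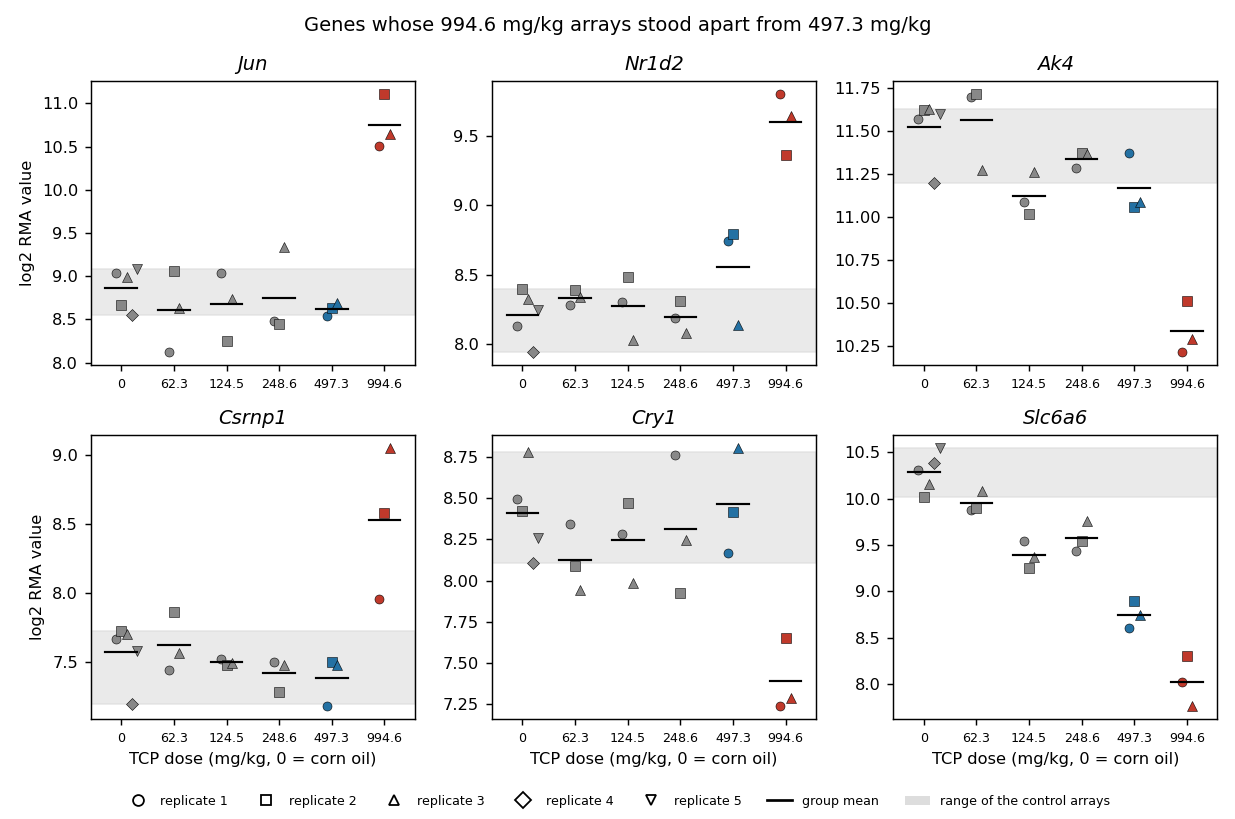
Log2 RMA value of each array (points, shape by replicate number) against TCP dose in mg/kg, with group means as bars and the range of the 5 control arrays in grey, for Jun, Nr1d2, Ak4, Csrnp1, Cry1 and Slc6a6. The red 994.6 mg/kg points do not overlap the blue 497.3 mg/kg points in any of these panels, and Slc6a6 is also below control at 497.3 mg/kg.

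Promoter sequences show which motif letters lie near the starts of Nr1d2 and Ak4, and of Bhlhe40, a clock repressor described further on. They are from RefSeq on the build GRCr8, from 250 bases before to 50 after the start, 5′ to 3′ on the gene's strand, with motif matches on either strand in capitals (in Bhlhe40 the E-box alone).

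Nr1d2, chr15:9954784-9955083 (+): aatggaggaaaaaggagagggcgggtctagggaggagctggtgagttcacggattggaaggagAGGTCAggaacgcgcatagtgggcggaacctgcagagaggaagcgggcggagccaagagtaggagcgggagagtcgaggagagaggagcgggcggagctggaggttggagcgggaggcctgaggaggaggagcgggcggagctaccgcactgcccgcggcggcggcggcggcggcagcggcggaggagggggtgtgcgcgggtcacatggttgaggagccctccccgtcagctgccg

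Ak4, chr5:121154886-121155185 (+): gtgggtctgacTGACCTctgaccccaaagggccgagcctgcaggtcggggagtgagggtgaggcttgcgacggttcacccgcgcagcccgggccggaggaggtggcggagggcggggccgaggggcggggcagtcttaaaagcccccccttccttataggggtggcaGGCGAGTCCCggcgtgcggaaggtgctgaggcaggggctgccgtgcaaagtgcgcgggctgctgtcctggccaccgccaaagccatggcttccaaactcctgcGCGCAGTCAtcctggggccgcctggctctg

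Bhlhe40, chr4:143174200-143174499 (+): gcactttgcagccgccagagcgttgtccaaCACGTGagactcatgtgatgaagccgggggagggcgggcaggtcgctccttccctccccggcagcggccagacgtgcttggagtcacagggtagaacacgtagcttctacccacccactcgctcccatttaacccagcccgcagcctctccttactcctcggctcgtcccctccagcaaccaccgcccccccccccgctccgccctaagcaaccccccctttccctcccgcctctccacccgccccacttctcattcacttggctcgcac

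The capitals in Nr1d2 are AGGTCA, the core bound by ROR and REV-ERB receptors, at position -187 from the start. In Ak4 they are the same core read on the other strand at position -239, a match to the NF-kB pattern (GGGA, any 4 bases, CC) at -83, and a match to the core of the antioxidant response element (TGAC, any 3 bases, GC) at 20. In Bhlhe40 they are the E-box CACGTG at position -220, and an NF-kB pattern at -60 is left in lower case. None of these matches overlap. AGGTCA was present in 16.2% of all 33469 promoters given, CACGTG in 6.42%, the NF-kB pattern in 19.3% and the antioxidant core in 12.1%. The other motifs searched were the AP-1 site TGANTCA (7.33% of all promoters), the interferon-stimulated response element described further on (3.92%), and by name the cAMP response element (1.83%), the amino acid response element core (3.98%), the D-box (3.66%) and the heat shock element (0.798%), and none of these letters were found in the 3 windows. A match is a description of letters, not of binding.

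Immediate early genes held the largest called rise, that of Jun. Of 27 measured members of the immediate early list, 9 were higher and 3 lower at an unadjusted limma p under 0.05, against 3.11% and 4.5% of all genes, and Jun alone passed the adjusted threshold. The list's median change was 0.19, against -0.01 over all genes, and without replicate 1 of 994.6 mg/kg it was 0.13, with 7 higher and 2 lower (1.8% and 2.42% of all genes). Without replicate 3 of 497.3 mg/kg no member was lower and 8 were higher. Against control at 994.6 mg/kg, Jun differed by 1.88, Dusp1 by 1.14, Gadd45g by 1.02, Gadd45b by 0.95 and Klf6 by 0.83. Ier3 differed by 0.33, Klf10 by 0.18, Junb by -0.003 and Ier2 by -0.28. Of these 9 higher members only Jun had a limma adjusted p under 0.05 against control. Fosl1, Egr2 and Nr4a1, which encode transcription factors of the same early class, were the lower members, at -0.26, -0.50 and -0.51. Their means at both doses lay below the level of the median gene, 7.515. A second Egr2 probe set, with means of 4.19 and 4.57, gave 0.37. The 497.3 mg/kg arrays all lay below the control range for Dusp1, Klf10, Junb and Ier2, and above it for Fosl1 and Egr2.

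Csrnp1, which encodes a nuclear protein, read 7.18, 7.50 and 7.48 at 497.3 mg/kg and 7.95, 8.58 and 9.05 at 994.6 mg/kg. The groups did not overlap and the higher dose lay above the control range of 7.20 to 7.73. Its change of 1.14 ± 0.20 (SE) had a limma adjusted p of 0.0501. Without replicate 1 of 994.6 mg/kg it was called, at 1.42 (limma adjusted p = 0.00112), as it was in 6 of 16 other settings in all. Csrnp1 was singled out after its values were seen. Dusp1, Gadd45a and Stat3, which follow, were named because their changes were among the largest of their lists.

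Dusp1, a phosphatase that switches off MAP kinases, read 9.52, 9.89 and 9.41 against 10.32, 11.71 and 12.51 (change 1.91 ± 0.45 SE, limma adjusted p = 0.168). Gadd45a, a DNA-damage and growth-arrest gene, read 9.29, 10.05 and 9.20 against 10.41 to 11.21 (change 1.28 ± 0.26, limma adjusted p = 0.0898). In each the groups did not overlap. All 3 Dusp1 arrays of the lower dose lay below the control range of 9.94 to 10.89, and 2 of 3 of the higher dose lay above it. Without replicate 1 of 994.6 mg/kg Dusp1 was called, at 2.51 (limma adjusted p = 0.0222). Stat3, the transducer of interleukin-6 signals, read 8.68, 8.67 and 9.46 against 11.61, 10.38 and 9.71 (limma adjusted p = 0.258), with control at 8.97 to 10.55. Its other probe set gave 0.34 where the first gave 1.63. Against control Stat3 differed by -0.89 at 497.3 mg/kg and 0.74 at 994.6 mg/kg (limma adjusted p = 0.327 and 0.298). Cdkn1a, on the list of p53 targets with Gadd45a, differed by -0.88 ± 0.48 (SE; limma adjusted p = 0.724), and its other probe set gave 0.009.

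The integrated stress response and unfolded protein list had 9 of 42 measured members higher and none lower at an unadjusted p under 0.05, with 37 means higher (46.7% of all genes had a higher mean). Over all genes 3.11% were higher at this threshold. The list's median change was 0.17 (0.07 without replicate 1 of 994.6 mg/kg, where 5 members and 1.8% of all genes were higher). No list member passed the adjusted threshold on all 20 arrays. Fgf21, a stress hormone of the liver, read 8.58, 8.33 and 8.29 against 10.30, 9.74 and 10.06, so that all higher-dose arrays lay above the control range of 7.86 to 8.91. The means at 124.5 and 248.6 mg/kg, 9.22 and 9.435, also lay above that range, so Fgf21 was not raised at 994.6 mg/kg alone. Against control, Fgf21 at 994.6 mg/kg differed by 1.71 (limma adjusted p = 0.0925). Its change of 1.64 ± 0.63 (SE) had a limma adjusted p of 0.57 in the fit on 20 arrays, and it was among 2 genes called when only the 6 arrays of both doses were fitted. Atf3, a repressor induced by stress, read 5.66, 5.96 and 6.73 against 7.69, 7.58 and 7.11 (change 1.34 ± 0.27, limma adjusted p = 0.0951). Atf4 itself differed by 0.62 ± 0.19 and Ddit3, the pro-apoptotic CHOP, by 0.49 ± 0.18, with limma adjusted p of 0.439 and 0.535. Gdf15, a stress-induced cytokine, read 6.06, 6.69 and 6.50 against 6.68, 8.02 and 8.22 (change 1.22 ± 0.29, limma adjusted p = 0.168). Replicate 1 of 994.6 mg/kg lay within the range of the lower dose and the other 2 arrays above it, and without that replicate Gdf15 was called, at 1.70 (limma adjusted p = 0.00127).

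The interferon list had the largest median difference of the lists described here, 0.38, with 31 of 35 means higher, 13 members higher and none lower at an unadjusted p under 0.05, and 14 whose arrays did not overlap (3.92% of all genes were higher without overlap). Over all genes 3.11% were higher at that unadjusted p. Without replicate 1 of 994.6 mg/kg the list median was 0.27 and 8 members were higher (1.8% of all genes), and without replicate 3 of 497.3 mg/kg 5 were. No member passed the adjusted threshold. Isg15, a ubiquitin-like modifier induced by interferon, read 8.43, 9.22 and 8.55 against 9.84, 9.86 and 9.75 (change 1.08 ± 0.28 SE, limma adjusted p = 0.265). Usp18, the protease that removes it, read 9.28, 9.85 and 8.73 against 10.32, 10.24 and 10.30 (change 1.003 ± 0.32, limma adjusted p = 0.485). In both, the higher-dose arrays lay close together and above the control range, while replicate 2 of 497.3 mg/kg was the highest of its dose. Herc6, an interferon-induced ligase, read 6.19, 6.48 and 5.90 against 8.06, 6.91 and 7.14, and Igtp, an interferon-induced GTPase, 9.05, 9.21 and 9.14 against 10.81, 9.57 and 9.35. In these 2 genes replicate 1 of 994.6 mg/kg was the highest array, and without it the changes went from 1.18 to 0.83 and from 0.78 to 0.33.

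Promoters of the interferon list were searched for the interferon-stimulated response element, on both strands, as GAAA, any 2 bases, GAAA, with overlapping matches allowed. It was present in 20 of the 29 list genes with a promoter in the table (69%) and in 377 of the 11734 measured genes with one (3.21%). Of the 13 list genes at an unadjusted p under 0.05, 9 had a promoter in the table and 6 of these held a match, while Herc6, Mx1 and Irf9 held none. The 6 are shown as 60-base windows on GRCr8, 5′ to 3′ on the gene's strand, with the matches in the window in capitals. Ifi44l and Ifi44 each have 2 matches in the promoter, of which the window holds 1.

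Oas1a, chr12:41330406-41330465 (+): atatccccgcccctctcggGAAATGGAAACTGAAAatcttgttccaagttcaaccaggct

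Ifi44l, chr2:243328639-243328698 (+): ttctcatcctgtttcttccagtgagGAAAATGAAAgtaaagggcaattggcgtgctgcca

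Ifi44, chr2:243303832-243303891 (-): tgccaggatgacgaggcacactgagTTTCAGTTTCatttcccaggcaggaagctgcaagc

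Irf7, chr1:205800058-205800117 (-): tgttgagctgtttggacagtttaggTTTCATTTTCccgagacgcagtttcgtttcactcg

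Igtp, chr10:42874919-42874978 (+): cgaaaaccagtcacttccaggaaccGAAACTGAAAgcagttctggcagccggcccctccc

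Irgm, chr10:33742578-33742637 (-): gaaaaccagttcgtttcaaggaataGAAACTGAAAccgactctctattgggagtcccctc

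Oas1a encodes an antiviral oligoadenylate synthetase and Irf7 a transcription factor of the interferon response. The genes shown differed by 1.10 (Oas1a), 0.68 (Ifi44l), 0.48 (Ifi44), 0.66 (Irf7), 0.78 (Igtp) and 0.63 (Irgm) on the log2 scale, and none passed the adjusted threshold.

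**Figure D3:**
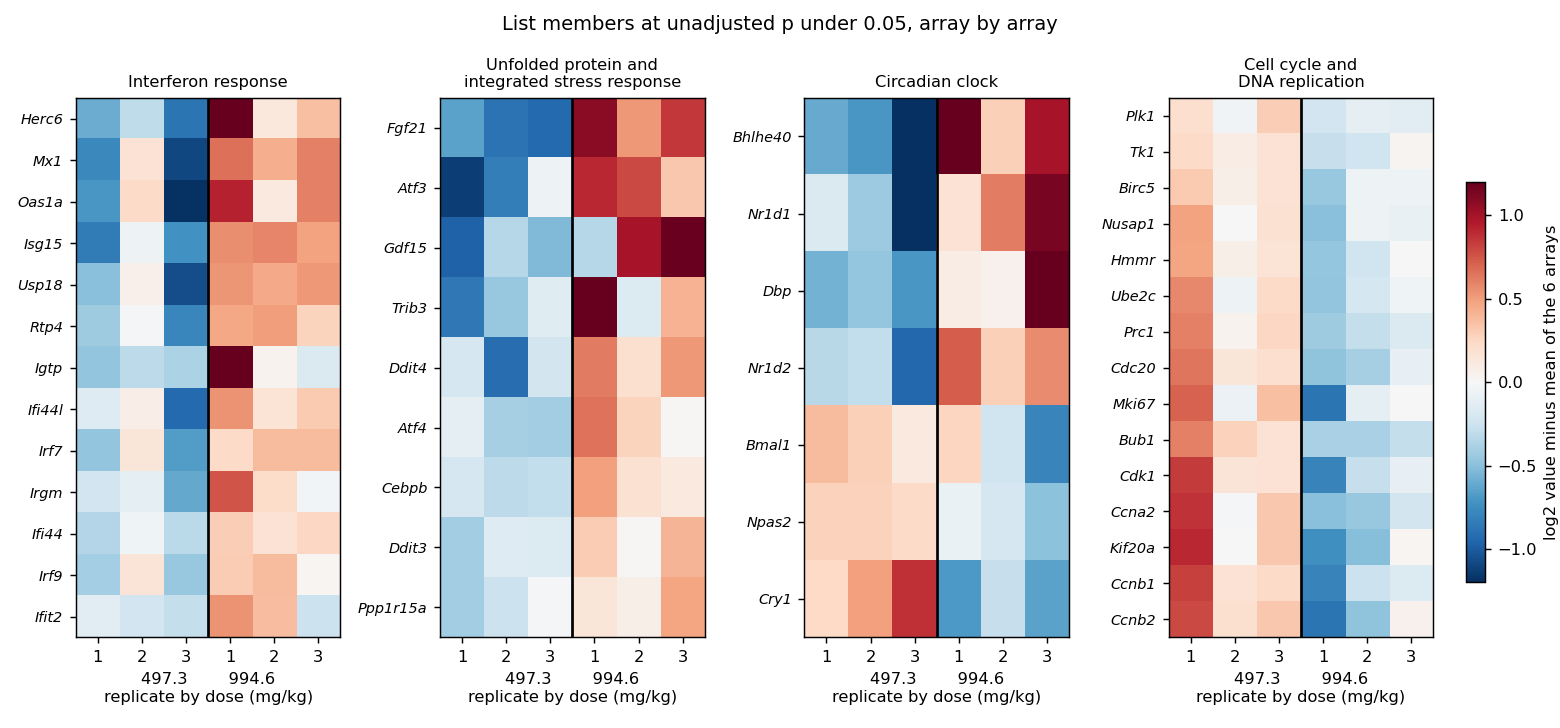
Each row is a gene of the interferon, stress response, clock or cell cycle list with an unadjusted limma p under 0.05, each column an array, and the colour its log2 value minus the mean of the 6 arrays. The interferon and stress rows are mostly blue at 497.3 mg/kg and red at 994.6 mg/kg, the cell cycle rows the opposite, and replicate 1 of each dose holds the darkest cell cycle cells.

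Clock genes differed in both directions. Of 19 measured members 4 were higher and 3 lower at an unadjusted p under 0.05 (6 and 3 without replicate 1 of 994.6 mg/kg), with a median change of 0.01. Over all genes 3.11% were higher and 4.5% lower (1.8% and 2.42% without that array). The higher members were Nr1d2, Nr1d1, Dbp and Bhlhe40, which are repressors or output factors driven through E-boxes, and the lower were Cry1, Npas2 and Bmal1. Nr1d1, the REV-ERB-alpha gene, read 7.38, 7.12 and 6.24 against 7.73, 8.17 and 8.69 (change 1.28 ± 0.39 SE, limma adjusted p = 0.439). Dbp, a clock output factor, read 6.23, 6.32 and 6.10 against 6.88, 6.85 and 8.37 (change 1.15 ± 0.28, limma adjusted p = 0.194). Cry1, a repressor of the core clock, read 8.17, 8.42 and 8.81 against 7.24, 7.65 and 7.29 (change -1.07 ± 0.21, limma adjusted p = 0.0852). Its higher-dose arrays lay below the control range of 8.11 to 8.78. Npas2 and Bmal1, activators of the clock, differed by -0.52 each, and for Bmal1 replicate 1 of 994.6 mg/kg lay within the lower dose.

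Ces2c and Abcc3 were already above control at 497.3 mg/kg. Ces2c, a carboxylesterase, read 10.90, 11.17 and 10.92 at 497.3 mg/kg and 12.37, 11.23 and 11.93 at 994.6 mg/kg, against a control range of 8.76 to 9.04. Its change over the last doubling was 0.85 ± 0.20 (SE; limma adjusted p = 0.168), beside 2.07 for 497.3 mg/kg against control (limma adjusted p = 2.6e-06). Abcc3, an exporter of conjugates, differed by 0.40 ± 0.27 over the doubling, with a 95% confidence interval of -0.17 to 0.97, and by 2.46 between 497.3 mg/kg and control. The CAR and PXR list had 5 of 19 members higher and none lower at an unadjusted p under 0.05 (3 without replicate 1 of 994.6 mg/kg or replicate 2 of 497.3 mg/kg), a median of 0.18 and 15 means higher. The higher members were 26.3% of the list, against 3.11% of all genes. The 5 were Ces2c, Por, Alas1, Cyp2a1 and Ephx1, whose products include the electron donor of cytochromes P450 and the first enzyme of heme synthesis. Against control at 497.3 mg/kg Ephx1 differed by 0.61 (limma adjusted p = 0.00828), but Por by -0.44, Alas1 by 0.19 and Cyp2a1 by 0.10, with limma adjusted p of 0.474, 0.748 and 0.874. Cyp3a23-3a1, a PXR-induced cytochrome, differed by 0.20 ± 0.20. Hmox1, heme oxygenase, read 12.46 in replicate 1 of 994.6 mg/kg and 9.26 to 9.70 in the other arrays, and its change went from 1.07 to 0.10 without that array.

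Of 23 measured esterases and lipid hydrolases, 5 were lower (21.7%, against 4.5% of all genes) and 1 higher at an unadjusted p under 0.05, with a median of -0.08. The count lower was 1 without replicate 1 of either dose and 2 without replicate 2 of 497.3 mg/kg, and none passed the adjusted threshold. The lower members were Bche, Pnpla6, Ces1e, Aadac and Mgll, and the higher was Ces2c. Mgll differed by -0.37, but its other 3 probe sets gave 0.22, 0.26 and -0.02. Bche, butyrylcholinesterase, read 6.87, 6.64 and 6.37 against 6.14 to 6.44 (change -0.30 ± 0.14 SE, limma adjusted p = 0.65). Pnpla6, neuropathy target esterase, read 7.20, 7.15 and 7.10 against 6.82, 6.88 and 7.13 (change -0.21 ± 0.09, limma adjusted p = 0.584). In both the doses overlapped, and these are RNA levels, not enzyme activities.

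Lipid and bile acid genes gave no called gene. Fatty acid oxidation and PPAR-alpha targets had 8 of 29 members lower and 1 higher at an unadjusted p under 0.05 with a median of -0.15, and without replicate 1 of 994.6 mg/kg they had 1 lower and none higher, with a median of -0.05. Without replicate 1 or 2 of 497.3 mg/kg 5 and 4 members were lower. Over all genes 4.5% were lower with every array and 2.42% without replicate 1 of 994.6 mg/kg. The lower members included Plin2, a lipid droplet coat protein, at -0.51, and Pex11a, a peroxisome division factor, at -0.64. Fatty acid and triglyceride synthesis had 5 of 26 lower and none higher, among them Fads2 (-0.53), a desaturase, and Dgat2 (-0.34), the last step to triglyceride, and without replicate 1 of 994.6 mg/kg 1 was lower, without replicate 3 of either dose 3, and without replicate 2 of 994.6 mg/kg 2 were higher. Slc6a6, the taurine transporter, read 8.61, 8.89 and 8.75 against 8.02, 8.30 and 7.77. Its change of -0.72 ± 0.14 (SE; limma adjusted p = 0.0898) stood beside -1.53 for 497.3 mg/kg against control (limma adjusted p = 2.6e-06), whose arrays ran from 10.02 to 10.55. A second Slc6a6 probe set gave 0.23. Cyp7a1, which catalyses the first step from cholesterol to bile acids, differed by 0.68 ± 0.36, and the sterol pump genes Abcg5 and Abcg8 by -0.48 ± 0.36 and -0.30 ± 0.26, with limma adjusted p of 0.711, 0.807 and 0.846.

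Most cell cycle genes had a lower mean at 994.6 mg/kg than at 497.3 mg/kg. Of 37 measured members 15 were lower and none higher at an unadjusted p under 0.05, 13 did not overlap (6.82% of all genes were lower without overlap), and the median change was -0.27. Over all genes 4.5% were lower at that unadjusted p. Without replicate 1 of 994.6 mg/kg 6 members were lower (2.42% of all genes), with a list median of -0.25, and without replicate 1 of 497.3 mg/kg 4 were lower. None passed the adjusted threshold. Ccnb1, mitotic cyclin B1, read 6.87, 6.23 and 6.29 against 5.26, 5.79 and 5.89 (change -0.82 ± 0.28 SE, limma adjusted p = 0.505). Cdk1, its kinase, read 7.51, 6.83 and 6.84 against 5.87, 6.39 and 6.58 (change -0.78 ± 0.32, limma adjusted p = 0.576). In both, replicate 1 was the highest array at 497.3 mg/kg and the lowest at 994.6 mg/kg, and all higher-dose arrays lay within the control range for Cdk1, 5.81 to 7.08. For Ccnb1 all 497.3 mg/kg arrays lay above the control range of 5.40 to 6.18. Against control Ccnb1 differed by 0.61 at 497.3 mg/kg and -0.21 at 994.6 mg/kg (limma adjusted p = 0.324 and 0.738). Cdk1 differed by 0.56 and -0.22 (limma adjusted p = 0.453 and 0.756). In RNA of whole tissue, fewer dividing cells and less RNA per cell cannot be told apart.

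Tubulin genes, a list made after the values were seen, had 5 of 12 members lower at an unadjusted p under 0.05 (4.5% of all genes were) and none higher. The count was 5 without replicate 1 of 994.6 mg/kg, and 3 without replicate 2 of 994.6 mg/kg or replicate 1 of 497.3 mg/kg. Tubb2a read 12.45, 11.98 and 12.40 against 11.67, 11.79 and 11.31 (change -0.69 ± 0.13 SE, limma adjusted p = 0.0844). Tuba4a read 11.03, 10.68 and 10.71 against 10.17, 10.26 and 10.13 (change -0.62 ± 0.12, limma adjusted p = 0.0852). For both genes the higher dose lay below the control range.

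The proteasome list had 29 of 32 means higher but a median of 0.11, with 2 members higher at an unadjusted p under 0.05, and without replicate 1 of 994.6 mg/kg the median was 0.05 and no member was. Without replicate 2 or 3 of 994.6 mg/kg 5 and 8 were, and without replicate 3 of 497.3 mg/kg 1 was. Glucocorticoid targets and metallothioneins had 5 of 18 members higher (27.8%, against 3.11% of all genes) and none lower, with a median of 0.23. Without replicate 1 of 994.6 mg/kg the median was 0.07 and the count 5. Dusp1, Gadd45g, Errfi1, Ddit4 and Klf9 were the 5. Dusp1 and Gadd45g are also counted on the immediate early list and Ddit4 on the stress response list. For Errfi1 and Klf9 all 497.3 mg/kg arrays lay below the control range. Against control at 994.6 mg/kg Ddit4 differed by 1.89, Dusp1 by 1.14, Gadd45g by 1.02, Errfi1 by -0.29 and Klf9 by -0.52. Cholesterol synthesis and uptake had 1 of 21 higher, Insig1, a brake on sterol synthesis, at 0.98 (limma adjusted p = 0.517), and with 1 array left out the count ran from 0 to 5 (2 without replicate 1 of 994.6 mg/kg, none without replicate 3 of 994.6 mg/kg or replicate 2 of 497.3 mg/kg, 4 without replicate 2 of 994.6 mg/kg and 5 without replicate 3 of 497.3 mg/kg). Oxidative phosphorylation (40 measured) and cytosolic ribosomal proteins (24 measured) had no member at an unadjusted p under 0.05 in either direction, with medians of -0.02 and 0.001. Without replicate 3 of 497.3 mg/kg 1 oxidative phosphorylation member was lower.

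Markers of other cell types had no called gene. Red blood cell markers had 3 of 9 members lower at an unadjusted p under 0.05 (2 without replicate 1 of 994.6 mg/kg), and their summed linear level ran from 8110 to 10700 at 497.3 mg/kg and from 2690 to 7970 at 994.6 mg/kg. Hbb, beta globin, read 12.59, 12.49 and 12.86 against 10.66, 12.44 and 12.10, so that replicate 1 of 994.6 mg/kg was far the lowest, and the change went from -0.91 to -0.38 without it. The part of these red cell values in other differences was not tested. The Kupffer cell, endothelial, and stellate cell lists had no member at an unadjusted p under 0.05, with medians of -0.04, -0.004 and 0.03. Without replicate 2 of 994.6 mg/kg 2 endothelial members were lower and 1 stellate cell member was higher. Without replicate 1 of 497.3 mg/kg 1 stellate cell member was higher, and without replicate 1 or 2 of 497.3 mg/kg 1 Kupffer cell member was lower. Without replicate 1 of 994.6 mg/kg 1 stellate cell member was lower. Lymphocyte and NK cell markers had 2 of 17 lower and none higher, also without that array, with 14 means lower, and 1 lower without replicate 2 of 994.6 mg/kg or replicate 3 of 497.3 mg/kg. These were Cd8a, a T cell coreceptor, at -0.39 with no overlap, and Cd79b, of the B cell receptor, at -0.26. The neutrophil and monocyte list had 1 of 10 lower, Fcnb, a ficolin, at -0.66 (1 lower and 1 higher without that array). The cholangiocyte list had 1 of 9 lower, Krt19, a bile duct keratin, at -1.09 (1 without that array, 3 without replicate 1 and none without replicate 2 of 497.3 mg/kg). The part of these marker values in the chemokine differences given further on was not tested.

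**Figure D4:**
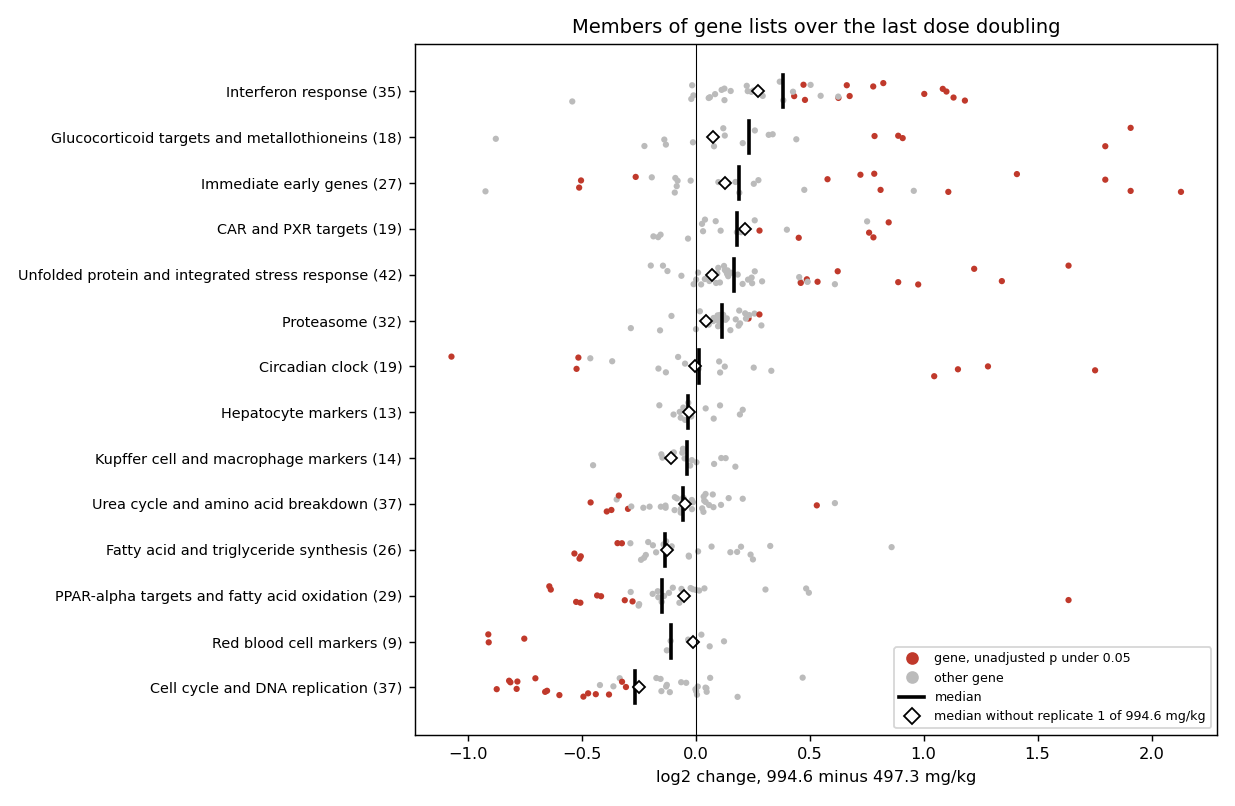
Log2 change (994.6 minus 497.3 mg/kg) of the members of 14 gene lists, 1 point per gene, red at an unadjusted limma p under 0.05, with list medians as bars and medians without replicate 1 of 994.6 mg/kg as diamonds. The interferon bar lies farthest right at 0.38 and the cell cycle bar farthest left at -0.27.

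In some genes all 497.3 mg/kg arrays lay beyond the control range on the same side, while the 994.6 mg/kg arrays did not. Among the 28 higher genes with an unadjusted limma p under 0.001, 14 had only the 994.6 mg/kg arrays beyond the control range and 6 had only the 497.3 mg/kg arrays beyond it, on the other side. Among the 25 lower genes these were 11 and 7. Over all genes with a higher mean the shares were 8.88% and 4.34%, and over those with a lower mean 9.29% and 5.59%. At an unadjusted limma p under 0.05 they were 35.1% and 13.1% of the higher genes and 30.9% and 16.2% of the lower. Genes picked for a gap between the doses more often have 1 dose beyond control. The shares of picked genes therefore cannot be set against those of all genes. Bhlhe40 read 7.24, 7.14 and 6.52 against 9.19, 8.13 and 8.83 with control at 8.02 to 9.07 (change 1.75 ± 0.31 SE, limma adjusted p = 0.0618). Klf10, a zinc-finger factor of the early response, read 8.16, 8.46 and 8.02 against 10.40, 8.63 and 9.84 with control at 9.02 to 9.72 (change 1.41 ± 0.29, limma adjusted p = 0.0971). Its replicates 1 and 3 of 994.6 mg/kg lay above the control range and replicate 2 below it. Errfi1, a feedback inhibitor of the EGF receptor, read 11.66, 12.03 and 11.81 against 13.04, 12.35 and 12.84 with control at 12.86 to 13.18. For these 3 genes the 497.3 mg/kg arrays all lay below control, but that dose was not alone. All 248.6 mg/kg arrays of Klf10 and Errfi1 also lay below the control range, as did all 124.5 mg/kg arrays of Klf10 and Bhlhe40. Means at 62.3, 124.5 and 248.6 mg/kg were 8.08, 7.59 and 7.58 for Bhlhe40 and 9.02, 8.77 and 8.61 for Klf10. For Errfi1 they were 13.05, 12.85 and 12.51.

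The list of chemokines and NF-kB feedback genes had 2 of 28 members higher and 3 lower at an unadjusted p under 0.05 (2 and 2 without replicate 1 of 994.6 mg/kg), with a median of -0.05 and 12 means higher. The counts of 2 and 3 are 7.14% and 10.7% of the list, against 3.11% and 4.5% of all genes. With 1 array left out, 2 to 4 were higher (4 without replicate 3 of 994.6 mg/kg) and 1 to 6 lower, 5 without replicate 2 of 497.3 mg/kg, the 6 without replicate 2 of 994.6 mg/kg or replicate 1 of 497.3 mg/kg and the 1 without replicate 3 of 497.3 mg/kg. Ccl2, a member, and Ccl7 and Xcl1, which are not on the list and were picked after their values were seen, had 497.3 mg/kg arrays above the control range. Ccl2, which recruits monocytes, read 5.87, 8.39 and 9.13 at 497.3 mg/kg and 5.64, 6.74 and 5.24 at 994.6 mg/kg, with control at 4.44 to 5.28. Replicate 1 of 497.3 mg/kg lay within the range of the higher dose, and the change of -1.92 ± 0.54 (SE) had a limma adjusted p of 0.348. Ccl7, a related chemokine, read 5.65, 7.30 and 6.996 against 5.39, 5.53 and 5.35 (change -1.23 ± 0.28, limma adjusted p = 0.168). Without replicate 1 of 497.3 mg/kg both were called, among 8 genes. Xcl1, a chemokine of lymphocytes, read 7.06, 7.29 and 7.49 against 6.67, 5.998 and 6.60 (change -0.86 ± 0.18, limma adjusted p = 0.0971).

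**Figure D5:**
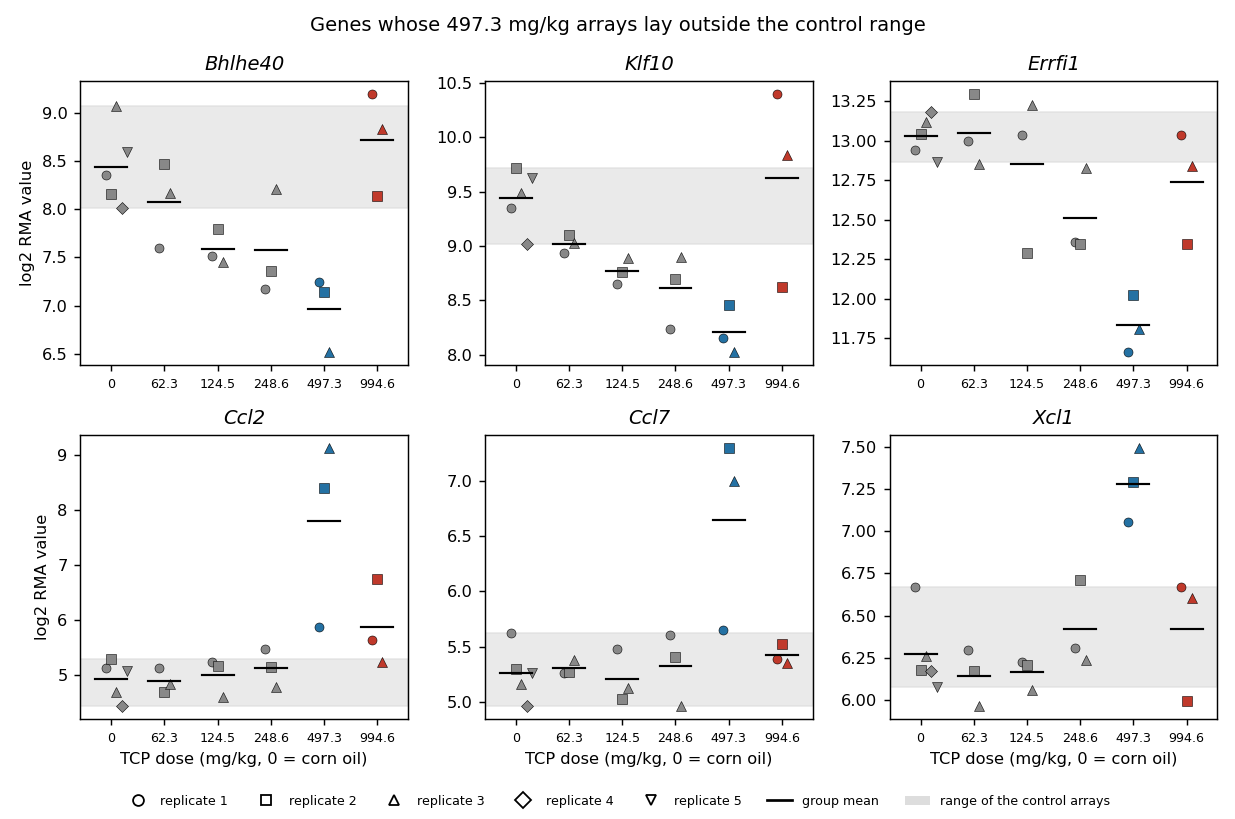
Log2 RMA value of each array against TCP dose in mg/kg, with group means as bars and the control range in grey, for Bhlhe40, Klf10, Errfi1, Ccl2, Ccl7 and Xcl1. The blue 497.3 mg/kg points lie below the control range in the upper panels and above it in the lower panels.

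Whether the last doubling differed from the one before it, 497.3 against 248.6 mg/kg, was tested as the difference of both changes, which share the 497.3 mg/kg arrays. The earlier doubling alone had 1 called gene (0.00703%) and 638 at an unadjusted p under 0.05 (4.49%). For the difference, 0 of 14217 genes (0%) passed the adjusted limma threshold, and 674 genes (4.74%) had an unadjusted p under 0.05. Jun had a difference of 2.26 and Ccl2 of -4.58, each with a limma adjusted p of 0.279. A step particular to the last doubling was thus not shown for any gene.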

How the data were processed

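The deposited values are on a log2 scale, and the submitters' processing notes name RMA. Its version, and which arrays were normalized together, are not given in the sources used here. RMA equalizes the arrays' distributions, so changes are measured against most other genes. Of 31042 probe sets other than controls, 20826 had 1 gene symbol, and the probe set with the highest mean over 20 arrays stood for each of 14217 genes. Group means were estimated with limma 3.58.1 in R 4.3.3, using the 20 arrays together (14 residual degrees of freedom), and p-values were adjusted by Benjamini-Hochberg. Precision is limited by 3 arrays a dose. On simulated data for this comparison over 14217 genes, 46% of changes of 0.5, 96% of 1, 100% of 1.5 and 98% of 2 were recovered (50 genes each), with 10 false calls. The simulation used independent normal noise of equal spread in every array, with no outlying array. Its many planted changes also loosen the adjusted threshold, so these shares cannot be carried over to the real arrays. In those, 39 genes were at least 2-fold higher and 13 at least 2-fold lower. Of these genes only Jun and Nr1d2 were called. Named genes were those called without overlap, the leading members of 39 gene lists, and 10 genes of interest; others were added after their values were seen. The members and lists were chosen with earlier results of these data known. Promoters came from a RefSeq table on GRCr8, matched by symbol for 11734 genes. Alternatives were other arrays in the fit, scaling, probe set choice, a filter on low values, eBayes settings, array weights, a GAPDH covariate, a replicate block and each array left out.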

Additional observations from a re-analysis of the deposited data

Results flagged for a closer look

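Of 77 genes tested, 3 had 1 of 5 control arrays far from the others by Dixon's criterion, where chance gives about 1 in 20. For Ak4 the lowest control array read 11.19 and the next 11.57. For Gadd45a the lowest read 8.81 and the next 9.40. For Tat, tyrosine aminotransferase, the highest read 9.97 and the next 9.38. No control array entered the contrast, although the control arrays share its estimate of spread.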

How the results depend on the processing

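Jun was called in every setting run. The count of 3 called genes (2 higher, 1 lower) became 1 (1 and 0) with the 15 treated arrays only or with probe sets averaged per gene, and with the 6 compared arrays only no gene was lower (0). It became 6 (5 higher) with arrays centred on the median or without the lowest 50% of genes, 5 (4 higher) with quantile normalization, 5 (2 lower) with trend and robust eBayes, and 122 (57 higher, 65 lower) with array weights, which gave replicate 2 of 994.6 mg/kg a weight of 7.50 and replicate 1 a weight of 0.31. Leaving out 1 array gave 1 to 15 called genes, 1 to 5 higher and 0 to 10 lower; the most were without replicate 2 of 994.6 mg/kg. For the last minus the middle doubling the count of 0 became 2 with array weights and ran from 0 to 7 when 1 array was left out, the 7 without replicate 1 of 497.3 mg/kg.

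With the replicate number as a block 4 genes were called (3 higher, 1 lower), Csrnp1 added. Same-numbered arrays of both doses had deviations that correlated at 0.04, -0.02 and 0.21, so the numbers were not taken to pair the animals.

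With array weights the changes reversed to 0.063 for Sult1c2, 0.007 for Insig2, -0.039 for Ndufa5, 0.089 for Stab1 and -0.035 for Cyp3a23-3a1. Leaving out 1 array, Gnl3 ran from -0.074 to 0.508 and S100a8 from -0.304 to 0.935, both lowest without replicate 1 of 994.6 mg/kg, and Tat from -0.043 to 0.569, lowest without replicate 2 of 497.3 mg/kg. The causes were not tested.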
